A study of Mus musculus with 8 samples.

Results

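The 38 genes described here encode proteins that carry cells from G1 into S phase and copy the DNA. They were chosen by name, and each was found once among the 55681 genes of the deposited table. The table holds RNA levels of mouse small intestine, taken whole at E15.5 from embryos on a C57BL6J background, with 4 control and 4 Slmap-cKO intestines and 1 intestine per library. Control embryos had the genotype Slmapfl/fl. The cKO embryos were Slmapfl/fl and also carried Cre, written Derom-Cre in the genotype and Dermo-Cre in the treatment label. Dermo1 is an older name of Twist2, so that Cre under this driver acts in mesenchymal cells, while epithelium and other cells of the gut keep their floxed alleles. All embryos of both groups thus carried the floxed alleles, and the study set the groups side by side to learn what accompanies the shortened gut after loss of Slmap. No litter, sex or batch is given in the labels, and the embryo is the replicate.

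Replication starts when the origin recognition complex, with CDC6 and CDT1, loads the ring of MCM proteins on DNA in G1. Cyclin E with its kinase, and E2F transcription factors, commit the cell to S phase, when MCM10, CDC45 and the GINS complex turn the ring into a running helicase. DNA polymerases, the sliding clamp PCNA and its loader RFC then copy the strands, and FEN1 and LIG1 join the fragments of the lagging strand. Transcripts of these genes are high in dividing cells and low in cells that have left the cycle, and at this stage both the epithelium and the mesenchyme of the mouse gut divide. In whole tissue, fewer cells of a type and less RNA per cell cannot be told apart.

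Promoters of these genes are known for E2F sites, which is why 4 of them are shown. Windows from 250 bases before to 50 after the transcript start came from RefSeq on GRCm38.p6, a build other than that of the RNA table, and were matched by symbol for 31 of the 38 genes. An E2F-type match was any of TTTCCCGC, TTTGGCGC, TTTCGCGC and TTTGCCGC on either strand, where matches may overlap. Of the 31 genes, 13 (41.9%) held such a match, against 2.61% of the 27025 genes that had a window. The 13 were Mcm3, Mcm5, Mcm6, Mcm7, Orc1, Cdc6, Cdt1, Pola1, Pold1, Rfc3, Lig1, Uhrf1 and E2f2. The windows below are those with the match nearest to the start among the genes given library by library further on, and capitals mark the E2F-type letters, which read as their reverse complement where the match is on the opposite strand. The Orc1 window lies on the plus strand at chr4:108579204-108579503, the Lig1 window on the plus strand at chr7:13278576-13278875, the Cdt1 window on the plus strand at chr8:122567765-122568064, and the Mcm6 window on the minus strand at chr1:128359656-128359955. Each is printed 5′ to 3′ along its gene.
Orc1: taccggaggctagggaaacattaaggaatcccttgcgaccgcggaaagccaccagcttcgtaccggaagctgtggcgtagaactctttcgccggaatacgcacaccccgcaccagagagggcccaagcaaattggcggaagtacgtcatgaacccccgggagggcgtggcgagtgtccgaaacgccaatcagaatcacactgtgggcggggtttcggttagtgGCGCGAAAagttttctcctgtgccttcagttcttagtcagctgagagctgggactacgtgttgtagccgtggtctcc
Lig1: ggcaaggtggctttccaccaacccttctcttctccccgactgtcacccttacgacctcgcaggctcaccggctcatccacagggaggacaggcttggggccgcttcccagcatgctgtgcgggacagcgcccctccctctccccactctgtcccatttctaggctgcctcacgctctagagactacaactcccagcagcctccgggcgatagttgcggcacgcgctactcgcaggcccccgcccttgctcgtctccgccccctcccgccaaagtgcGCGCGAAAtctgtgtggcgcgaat
Cdt1: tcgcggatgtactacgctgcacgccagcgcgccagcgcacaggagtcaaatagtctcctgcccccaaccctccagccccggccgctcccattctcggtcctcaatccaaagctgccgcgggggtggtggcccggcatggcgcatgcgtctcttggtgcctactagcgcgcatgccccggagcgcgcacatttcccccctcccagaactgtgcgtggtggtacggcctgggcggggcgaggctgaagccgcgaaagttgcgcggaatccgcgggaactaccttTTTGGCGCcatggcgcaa
Mcm6: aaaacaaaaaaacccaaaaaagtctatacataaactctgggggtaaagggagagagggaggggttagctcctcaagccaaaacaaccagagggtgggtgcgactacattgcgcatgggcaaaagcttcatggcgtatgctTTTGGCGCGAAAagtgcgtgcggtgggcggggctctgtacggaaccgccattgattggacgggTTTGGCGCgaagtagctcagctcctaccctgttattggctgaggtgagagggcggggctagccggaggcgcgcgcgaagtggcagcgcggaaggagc

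In the Orc1 window the single match was centred 23.5 bases before the start, and in the Lig1 and Cdt1 windows 29.5 and 35.5 bases after it. Mcm6 held 3 matches, of which the pair farther from the start overlapped each other on opposite strands, giving 1 longer capital run. The other motifs searched were the CHR-type letters TTTGAA and TTCGAA, known from genes of G2 and mitosis, and the NF-Y box CCAAT, both on either strand. CHR-type letters were in the windows of 6 of the 31 genes (19.4%), and in 21.7% of all genes with a window. CCAAT was found for 19 of the 31 (61.3%), against 41.1% of all. A list of 28 G2 and mitosis genes, of which 24 had a window, held E2F-type letters in 1 gene (4.17%) and CHR-type letters in 19 (79.2%). CCAAT was in the windows of 21 of these 24 (87.5%), a larger share than in the replication genes. A list of other replication genes, 37 with a window, had E2F-type letters in 14 (37.8%), CHR-type letters in 8 (21.6%) and CCAAT in 21 (56.8%). A match describes letters in a window and does not show that a factor binds there.

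**Figure D1:**
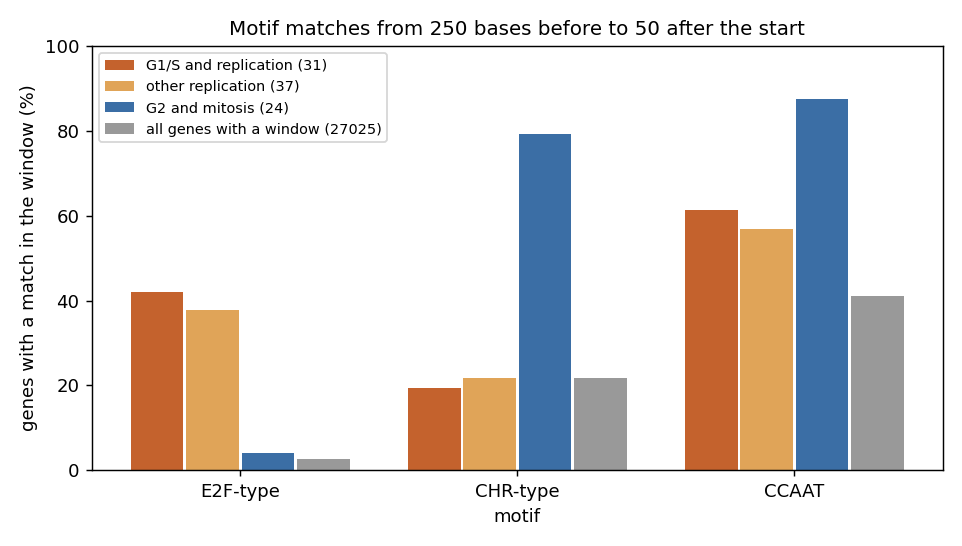
Share of genes (%) whose promoter window holds each motif on either strand, for the 31 G1/S and replication genes with a window, 37 other replication genes, 24 G2 and mitosis genes and all 27025 genes with a window. E2F-type letters were in 41.9% of the first set and CHR-type letters in 79.2% of the G2 and mitosis set.

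Levels are in FPKM, which scales fragments by gene length and by a total for each library. Reads recovered from the FPKM summed to 15663837 to 17806397 per library. The totals behind the FPKM were 1.09 and 1.06 times these sums in controls 3 and 4, and 1.00 times in controls 1 and 2. In cKO 1 to 4 the totals were 0.969, 1.01, 0.985 and 0.983 times the sums. Controls 3 and 4 stood apart. They had 25832 and 25934 genes with a read, against 23883 to 24071 in the other 6 libraries, and scored 33.3 and 24.3 on the first principal component, which held 36.3% of the variance. At its other end stood cKO 2 at -27.5, with controls 1 and 2 at -17.7 and -19.2. Slmap itself, the targeted gene, was no lower where the label is cKO. It measured 23.6, 23.3, 25.4 and 24.2 FPKM in controls 1 to 4, and 25.5, 23.5, 26.5 and 26.3 FPKM in cKO 1 to 4, with a log2 fold change of 0.07 ± 0.07 (SE, with adjusted p = 0.570 in limma). This value sums all exons in all cells of the gut, and directions below follow the labels.

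All 38 genes were expressed. Their mean levels over the 8 libraries ran from 1.85 FPKM for Fen1 to 111.1 FPKM for Pcna, with a median of 13.6 FPKM, and none had under 49 reads in any library. As 20 of the 38 overlap another gene of the table, 12 of these a protein-coding one, some reads there may belong to the neighbour or may not have been counted. The 38 genes together took 0.262% to 0.3895% of the reads of a control library and 0.351% to 0.429% of those of a library labelled cKO.

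Between the groups, 0 of the 38 genes passed the limma threshold of 0.05 for the adjusted p, while of all 14220 genes tested 0% passed with the libraries labelled cKO above the controls and 0.0141% with them below. The smallest adjusted p among the 38 was 0.0951, for Pola1. Without adjustment, p was below 0.05 for 7 of the 38 in the higher direction (18.4%) and for 0 in the other, beside 12.6% and 9.87% of all genes tested. limma-voom on the recovered reads gave the same counts for the 38, beside 12.8% and 9.71% of all genes, and called 0 of the 38 and 0% of all. The log2 fold change was above 0 for 32 of the 38 genes, with a median of 0.22, beside 0.00 over all genes tested, of which 49.7% were above 0. Leaving out controls 3 and 4 changed both the median and the counts. Without them the median was -0.040, with 17 genes above 0 and 21 below. Before adjustment, p was then below 0.05 for 4 of the 38 above the controls (10.5%) and for 7 below them (18.4%), beside 12.6% and 13.9% of all genes tested. The 4 were Mcm6, Pola1, Prim1 and Ccne2, and the 7 were Cdt1, Gins2, Pola2, Pold1, Fen1, E2f1 and Chaf1a.

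**Figure D2:**
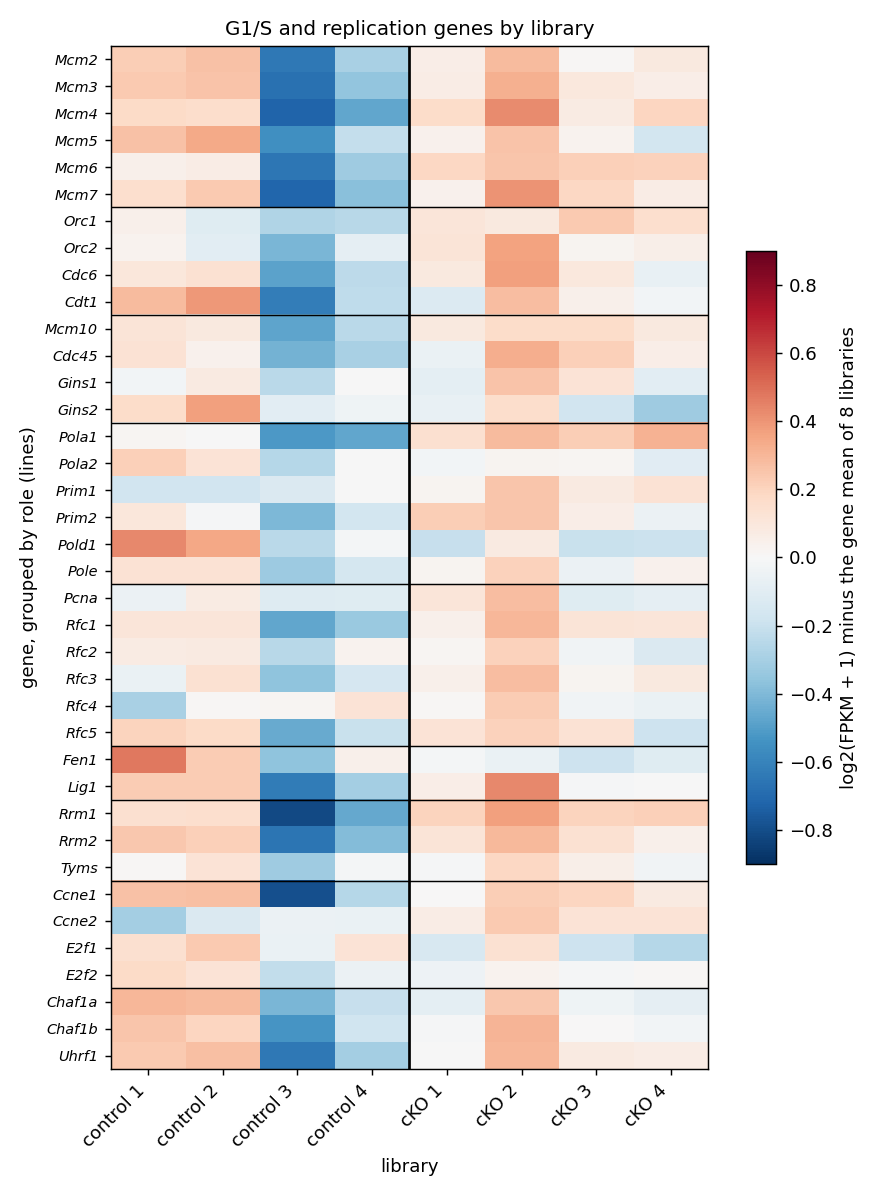
Each row is 1 of the 38 genes, grouped by role between the lines, and each column is 1 library. Colour shows log2(FPKM + 1) minus the mean of that gene over the 8 libraries, red for above and blue for below. Control 3 is the lowest library for 33 genes, and cKO 2 the highest for 25.

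The plot of all 38 genes by library shows how the values were spread. Control 3 was the lowest of the 8 libraries for 33 of the genes, and for 26 the lowest pair was control 3 with control 4. For 25 genes cKO 2 was the highest library, and for 10 it was control 1 or 2. The mean deviation from each gene's own mean was 0.13 and 0.14 in controls 1 and 2, -0.42 and -0.18 in controls 3 and 4, and 0.03, 0.24, 0.05 and 0.01 in cKO 1 to 4 (log2 scale). Controls 1 and 2 therefore lay above cKO 1, 3 and 4, while controls 3 and 4 lay below every library labelled cKO. The coefficient of variation was larger among the controls than among the libraries labelled cKO for 34 of the 38 genes, with medians of 22.0% and 9.80%. Shares of all genes tested with these orders and spreads were not counted. Whether the orders and spreads are particular to the 38 genes was therefore not tested.

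Of the helicase core, Mcm2 to Mcm7, all 6 genes were above 0 in log2 fold change, from 0.08 for Mcm5 to 0.43 for Mcm6, and 0 passed. Mcm6 was the most abundant, with a mean of 74.5 FPKM, and also had the smallest p of the ring. It measured 75.4, 76.5, 46.1 and 58.2 FPKM in controls 1 to 4, and 83.4, 86.9, 84.8 and 84.5 FPKM in cKO 1 to 4. The libraries labelled cKO were close to each other, with a coefficient of variation of 1.76%, and lay above every control, whose coefficient was 22.8%. The log2 fold change was 0.43 ± 0.15 (SE, with adjusted p = 0.156 in limma), and 0.16 without controls 3 and 4. Mcm6 maps to chromosome 1, 128259327 to 128287401, on the GRCm39 build of the table.

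The proteins of the ring are assembled in equal numbers, whereas the RNA levels differed within it. Below Mcm6, Mcm4 had a mean of 54.3 FPKM, Mcm3, Mcm7 and Mcm5 had 42.7, 41.3 and 39.8 FPKM, and Mcm2 had 23.2 FPKM. The means of Mcm3, Mcm7 and Mcm5 lay close together, and their SD among controls was 12.2, 11.2 and 11.1 FPKM. As these genes were read in the same libraries, that SD does not measure a difference between them, which was not tested. The other 5 genes had overlapping groups. Mcm4 and Mcm7 had log2 fold changes of 0.43 and 0.35, and Mcm2 and Mcm3 had 0.22 and 0.27. Without controls 3 and 4, Mcm5 stood at -0.26, Mcm2 at -0.13, Mcm3 at -0.11, Mcm7 at -0.019 and Mcm4 at 0.05.

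The factors that load the ring were Orc1 and Orc2, subunits of the origin recognition complex, with Cdc6 and Cdt1, and all 4 had a log2 fold change above 0. Orc1 (chromosome 4, 108436620 to 108472030) measured 4.08, 3.56, 3.09 and 3.14 FPKM in controls 1 to 4, and 4.31, 4.24, 4.81 and 4.47 FPKM in cKO 1 to 4. Every library labelled cKO was above every control. Its log2 fold change was 0.29 ± 0.09 (SE, with adjusted p = 0.114 in limma), and leaving out any 1 library kept it between 0.25 and 0.36. Cdt1, the most abundant of the 4, which brings the ring to the origin, measured 29.0, 31.1, 14.9 and 19.9 FPKM in controls 1 to 4, and 21.5, 28.8, 24.3 and 23.1 FPKM in cKO 1 to 4. Here controls 1 and 2 were the highest libraries of all and controls 3 and 4 the lowest, so that the group means of 23.7 ± 7.61 and 24.4 ± 3.12 FPKM (SD, n = 4 each) hardly differed. Its log2 fold change of 0.09 ± 0.22 (SE, with adjusted p = 0.843 in limma) became -0.29 without controls 3 and 4. Orc2 at 0.28 was above 0 at an unadjusted p under 0.05, and Cdc6, the loading ATPase, had 0.24. For both the groups overlapped.

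Helicase activation was measured by Mcm10, Cdc45, Gins1 and Gins2. Mcm10, which helps to start the loaded helicase, measured 8.40, 8.20, 5.25 and 6.34 FPKM in controls 1 to 4, and 8.23, 8.73, 8.74 and 8.19 FPKM in cKO 1 to 4. The libraries labelled cKO lay beside controls 1 and 2 and above controls 3 and 4, for a log2 fold change of 0.26 ± 0.13 (SE, with adjusted p = 0.285 in limma). Gins1, a subunit of the 4-part GINS complex, measured 12.8, 13.9, 10.9 and 13.0 FPKM in controls 1 to 4, and 12.2, 15.8, 14.3 and 12.2 FPKM in cKO 1 to 4. Its groups overlapped through most of their range (log2 fold change 0.10 ± 0.11 SE, with adjusted p = 0.632 in limma). Cdc45 had a log2 fold change of 0.27 and Gins2 one of -0.20, with overlapping groups for both. The 2 GINS subunits thus had opposite signs, but neither passed, and whether they differ was not tested.

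Among the polymerases, both genes of smallest p belong to the primase complex, which lays down the short primers of each new strand. Pola1 (chromosome X, 92348373 to 92675761), the catalytic subunit of polymerase alpha, measured 8.69, 8.52, 5.69 and 5.92 FPKM in controls 1 to 4, and 9.56, 10.7, 10.2 and 10.9 FPKM in cKO 1 to 4. The groups did not overlap, and the log2 fold change of 0.48 ± 0.14 (SE, with adjusted p = 0.0951 in limma) was 0.24 without controls 3 and 4. Prim1 (chromosome 10, 127851037 to 127865906), the catalytic primase subunit and the most abundant of the 6, measured 13.0, 13.0, 13.5 and 14.7 FPKM in controls 1 to 4, and 15.1, 17.8, 15.7 and 16.3 FPKM in cKO 1 to 4. Unlike most of the 38 genes, Prim1 was not lowest in controls 3 and 4, and the groups did not overlap. Its log2 fold change was 0.24 ± 0.08 (SE, with adjusted p = 0.124 in limma), and 0.29 without those 2 controls. Prim2, the large primase subunit, had 0.24. Pola2, the accessory subunit of polymerase alpha, had -0.04 ± 0.10 (SE, with adjusted p = 0.848 in limma), an estimate within its SE of 0. Pold1, the catalytic subunit of polymerase delta, lay at 11.6 to 19.03 FPKM in the controls and at 11.9 to 14.7 FPKM in the libraries labelled cKO. At -0.26 ± 0.15 it had the lowest log2 fold change of the 38 (SE, with adjusted p = 0.352 in limma). Pole, its counterpart on the leading strand, had 0.11.

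**Figure D3:**
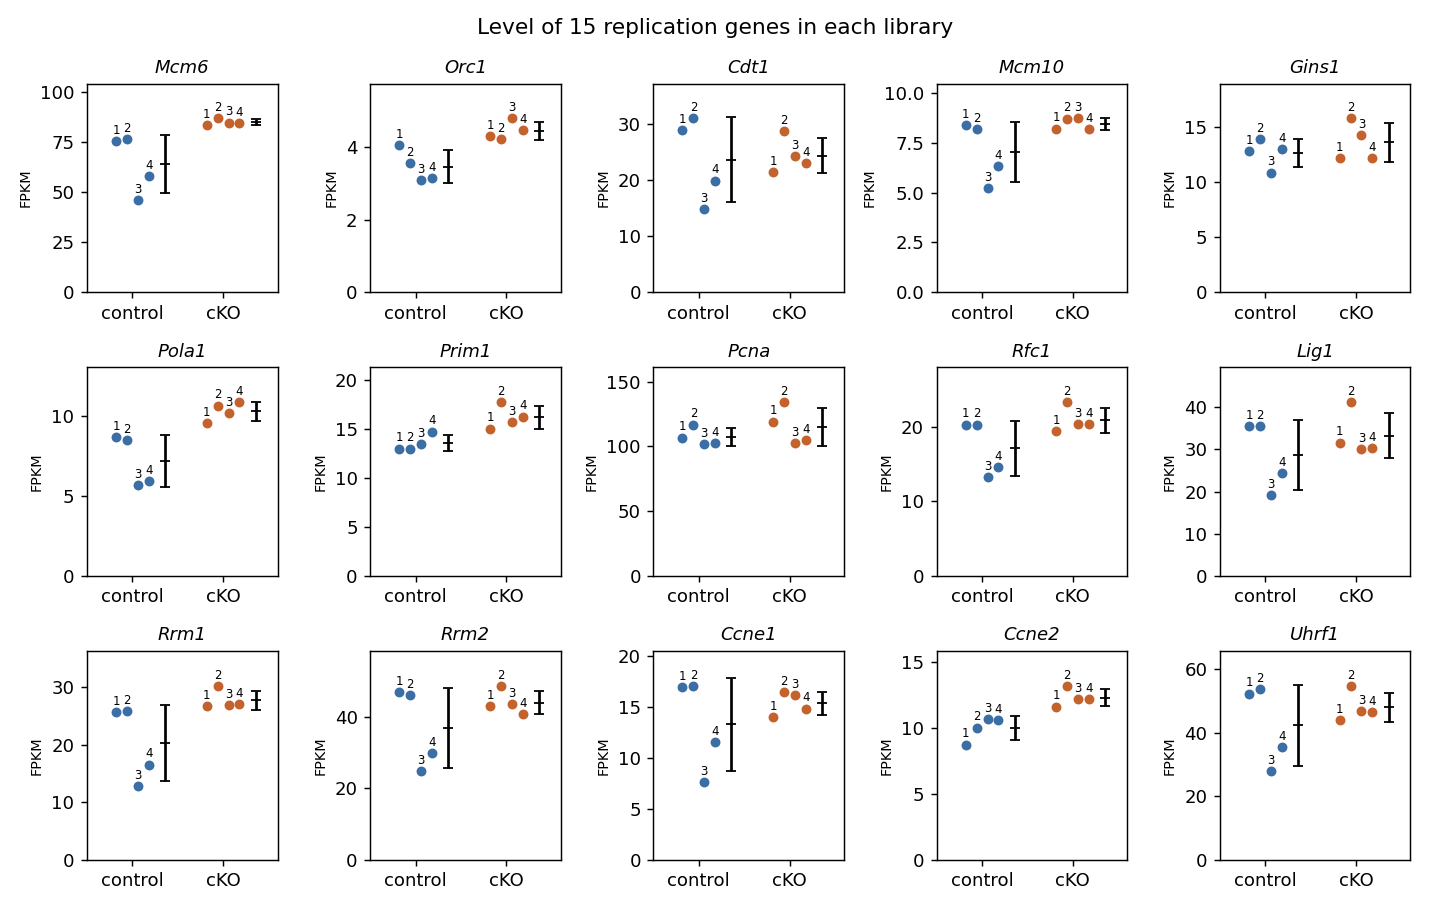
FPKM of 15 genes in each library, with the axis from 0, controls in blue and libraries labelled cKO in orange, and the replicate number above each point. Black bars show the mean and SD of the 4 libraries of a group. Mcm6, Orc1, Pola1, Prim1, Rrm1 and Ccne2 have no overlap between the groups.

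All 6 genes of the sliding clamp and its loader lay above 0, with a median log2 fold change of 0.12, and their groups overlapped. Pcna, the ring that holds polymerases on DNA, measured 106.8, 116.8, 102.0 and 102.7 FPKM in controls 1 to 4, and 119.2, 134.2, 102.7 and 104.8 FPKM in cKO 1 to 4. Among the libraries labelled cKO, numbers 1 and 2 exceeded every control and numbers 3 and 4 did not (log2 fold change 0.10 ± 0.11 SE, with adjusted p = 0.621 in limma). Reads of Pcna can be shared with its processed copy Pcna-ps2. Rfc1, the large subunit of the clamp loader, measured 20.3, 20.3, 13.3 and 14.6 FPKM in controls 1 to 4, and 19.4, 23.3, 20.4 and 20.3 FPKM in cKO 1 to 4. As for Mcm10, the values of controls 1 and 2 fell among those labelled cKO (log2 fold change 0.29 ± 0.14 SE, with adjusted p = 0.272 in limma). The small subunits Rfc2, Rfc3, Rfc4 and Rfc5 had 0.03, 0.22, 0.07 and 0.14. Rfc4, which overlaps Eif4a2, was lowest in control 1 at 21.5 FPKM and stood at 26.8 and 28.9 FPKM in controls 3 and 4.

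Fragment joining was represented by Lig1, the ligase, and Fen1, the flap nuclease. Lig1 measured 35.6, 35.6, 19.2 and 24.3 FPKM in controls 1 to 4, and 31.6, 41.2, 30.1 and 30.3 FPKM in cKO 1 to 4. The groups overlapped, with a log2 fold change of 0.24 ± 0.20 (SE, with adjusted p = 0.520 in limma) that was -0.11 without controls 3 and 4. Fen1 had the lowest level of the 38 genes, with group means of 2.07 ± 0.72 and 1.63 ± 0.13 FPKM (SD, n = 4 each) and a log2 fold change of -0.19. It overlaps Tmem258 and Gm10143 on the other strand, and no source used here says whether the counting used strand.

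Enzymes that make deoxynucleotides were all above 0. Rrm1 (chromosome 7, 102090902 to 102118978), the large subunit of ribonucleotide reductase, measured 25.7, 25.9, 12.8 and 16.5 FPKM in controls 1 to 4, and 26.8, 30.2, 26.9 and 27.1 FPKM in cKO 1 to 4. The groups did not overlap, although the gap between control 2 and cKO 1 was narrow. Its log2 fold change was the highest of the 38 genes at 0.49 ± 0.21 (SE, with adjusted p = 0.208 in limma), and 0.10 without controls 3 and 4. Rrm2, the small subunit, which is confined to S phase in dividing cells, measured 47.0, 46.2, 24.8 and 30.0 FPKM in controls 1 to 4, and 43.1, 48.8, 43.6 and 40.9 FPKM in cKO 1 to 4. Control 1 lay above 3 of the 4 libraries labelled cKO, for a log2 fold change of 0.29 ± 0.20 (SE, with adjusted p = 0.414 in limma). Tyms, which makes thymidylate, had 0.10.

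Of the cyclins and E2F factors that govern entry into S phase, both cyclin E genes lay above 0 and E2f1 below, with E2f2 at -0.01. Ccne2 (chromosome 4, 11191351 to 11204779) measured 8.74, 10.02, 10.7 and 10.6 FPKM in controls 1 to 4, and 11.6, 13.2, 12.2 and 12.2 FPKM in cKO 1 to 4. Every library labelled cKO was above every control, and controls 3 and 4 were above controls 1 and 2. The log2 fold change was 0.27 ± 0.08 (SE, with adjusted p = 0.104 in limma), and 0.36 without controls 3 and 4. Ccne1, the more abundant cyclin E gene, measured 16.9, 17.0, 7.65 and 11.5 FPKM in controls 1 to 4, and 14.0, 16.5, 16.1 and 14.8 FPKM in cKO 1 to 4. Here controls 1 and 2 were the highest of all libraries (log2 fold change 0.25 ± 0.22 SE, with adjusted p = 0.533 in limma, and -0.14 without controls 3 and 4). E2f1, an activator of replication genes, had group means of 13.2 ± 1.19 and 11.2 ± 1.53 FPKM (SD, n = 4 each) and a log2 fold change of -0.22 ± 0.10 (SE, with adjusted p = 0.251 in limma). For E2f2 it was -0.01.

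The chromatin genes were Chaf1a and Chaf1b, subunits of the assembly factor that puts histones on new DNA, and Uhrf1, which helps to copy DNA methylation. Uhrf1, the most abundant of them, measured 52.3, 53.6, 27.9 and 35.5 FPKM in controls 1 to 4, and 44.0, 54.7, 46.8 and 46.4 FPKM in cKO 1 to 4. Controls 1 and 2 lay above cKO 1, 3 and 4, and the log2 fold change of 0.22 ± 0.20 (SE, with adjusted p = 0.552 in limma) was -0.14 without controls 3 and 4. Chaf1a had 0.02 and Chaf1b had 0.14, with overlapping groups.

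**Figure D4:**
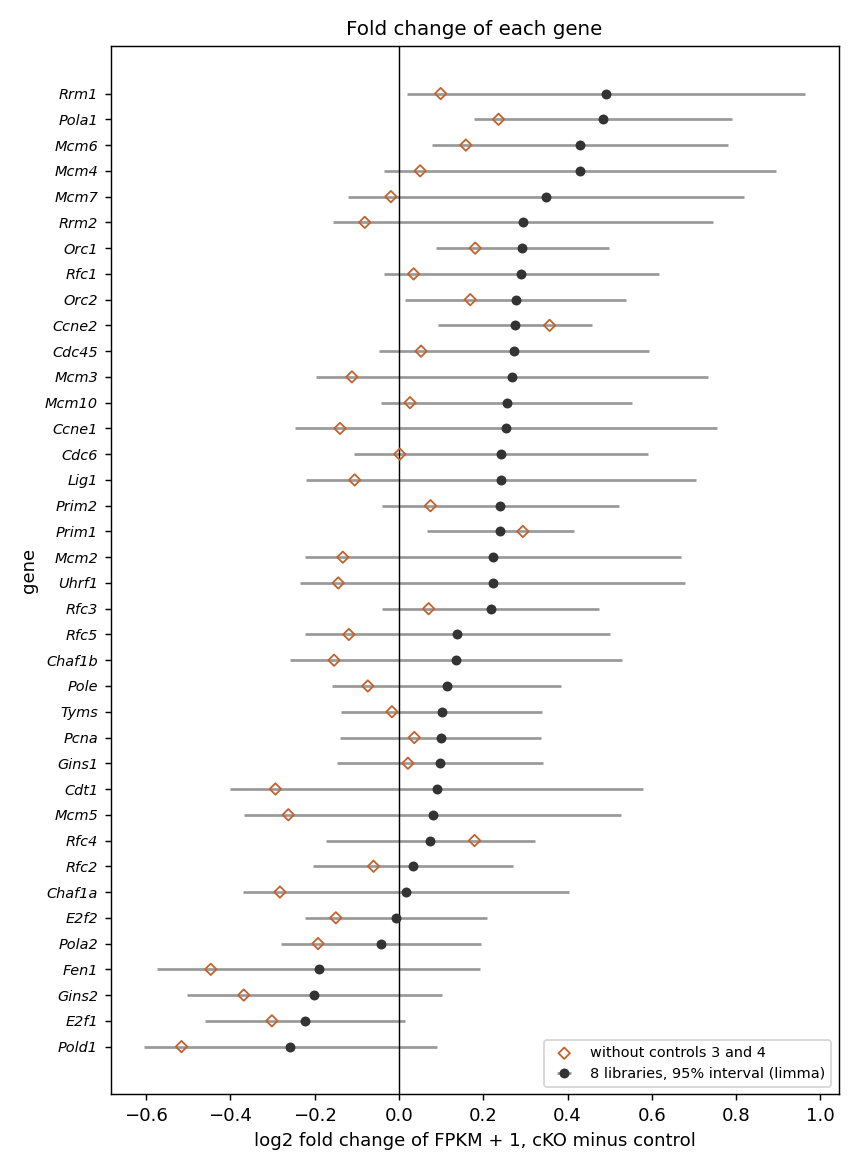
Log2 fold change of each of the 38 genes on the log2(FPKM + 1) scale, libraries labelled cKO minus controls. Filled points with bars are limma estimates and 95% intervals from all 8 libraries, and open diamonds are estimates without controls 3 and 4. Ccne2, Prim1 and Rfc4 are the genes whose diamond lies to the right of the filled point.

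In all, 6 of the 38 genes (15.8%) had no overlap between the groups with the libraries labelled cKO above, namely Mcm6, Orc1, Pola1, Prim1, Rrm1 and Ccne2, and 0 had none with them below. Over all genes tested the shares were 9.61% and 5.75%. These counts depend on the totals behind the FPKM. With each library scaled by its summed reads, Prim1, Rrm1 and Ccne2 overlap, while Mcm6, Orc1 and Pola1 do not. The share of all genes was not counted on that scale. Without controls 3 and 4 the log2 fold changes of the 6 genes were 0.10 to 0.36, with a sign that the absence of overlap fixes. A further 10 genes (26.3%) were lower in every library labelled cKO than in both controls 1 and 2, beside 20.8% of all genes tested. These were Mcm5, Cdt1, Gins2, Pola2, Pold1, Fen1, Ccne1, E2f1, E2f2 and Chaf1a. Over the 38 genes, 15 went from above 0 to below when controls 3 and 4 were left out, and the plot of fold changes gives both estimates for each gene. That fit rests on controls 1 and 2 alone. For the 26 genes with controls 3 and 4 as the lowest pair, leaving them out can only lower the fold change. The share of all genes tested that changed sign was not counted. Array quality weights were lowest for cKO 2 (0.329), control 3 (0.467) and control 4 (0.683), and highest for cKO 3 (2.42). With these weights limma called Orc1, Prim1 and Ccne2 higher (7.89%) and Pold1 and E2f1 lower (5.26%), beside 8.3% and 7.24% of all genes tested.

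Base composition moved with these differences. Over all genes tested, the log2 fold change and the GC content of the transcript had a Spearman rho of -0.558 across 13992 genes, which share the same 8 libraries. The 6 genes without overlap had a GC content of 36.3% to 47.3%, and the 6 with a log2 fold change below 0 had 47.0% to 61.0%, while the median of the 38 was 49.2% and of all genes tested 49.7%. After a correction of each library for GC content and gene length, Ccne2 went to 0.09 and Prim1 to 0.11, and E2f1 and Pold1 both went to -0.04. Mcm6 was at 0.36, Pola1 at 0.31 and Orc1 at 0.22, the median of the 38 was 0.15, and 32 were above 0. Other genes moved away from 0, such as Mcm7 from 0.35 to 0.42 and Cdt1 from 0.09 to 0.26. How many moved each way was not counted. With this correction p was below 0.05 before adjustment for 3 of the 38 above the controls (7.89%) and for 0 below. Among all genes the correction could be applied to, the shares were 6.78% and 4.89%. The 3 were Mcm6, Mcm7 and Orc1.

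The rest of the replication machinery was read from a second list. Of 44 other replication genes, all tested, 34 lay above 0, the median log2 fold change was 0.17, and 0 passed. Without adjustment, p was below 0.05 for 13 in the higher direction and for 0 in the other, beside 12.6% and 9.87% of all genes tested. The smallest p were those of Orc5, Dbf4, Pole2 and Atad5. Orc5, another origin recognition subunit, had group means of 5.13 ± 0.24 and 6.63 ± 0.25 FPKM (SD, n = 4 each), a log2 fold change of 0.31 ± 0.07 (SE, with adjusted p = 0.0758 in limma). Dbf4, the activator of the CDC7 kinase that fires origins, had 0.33, and Pole2, a subunit of polymerase epsilon, had 0.41. Atad5, which helps to take PCNA off DNA, had 0.24. Without controls 3 and 4 the median of this list was 0.07, with 26 of 44 above 0. The G2 and mitosis genes, which follow in the cycle, had 27 of 28 above 0 and a median of 0.26. Before adjustment p was below 0.05 for 12 above and 1 below, beside the same 12.6% and 9.87% of all genes, and 0 passed the adjusted threshold. The smallest p there were those of Cenpe, a kinetochore motor, Bub1, a checkpoint kinase, Hmmr, a spindle protein, and Kif11, a mitotic kinesin, at 0.38, 0.34, 0.43 and 0.42. Without controls 3 and 4 the median was 0.05. Whether the lists differ from each other was not tested.

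**Figure D5:**
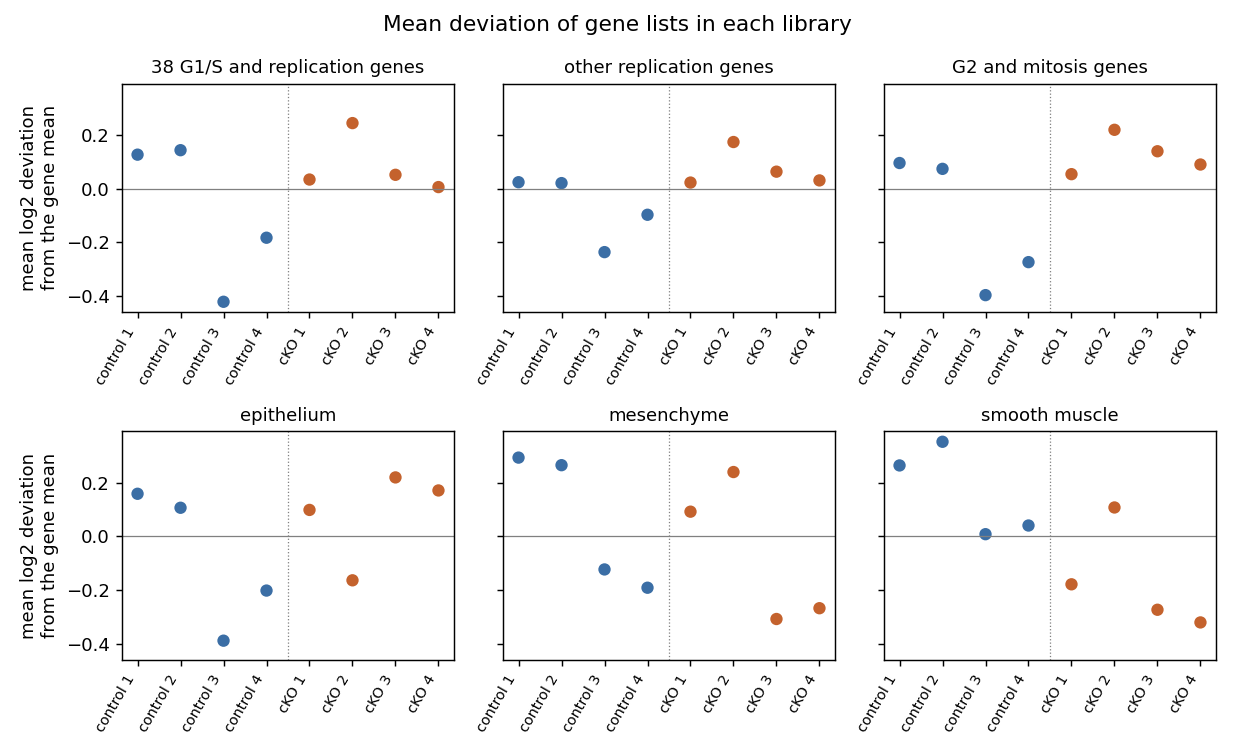
Mean log2 deviation of 6 gene lists in each library, as the mean over genes of log2(FPKM + 1) minus the gene's own mean, with controls in blue and libraries labelled cKO in orange. In the upper panels controls 3 and 4 are the lowest libraries, and the epithelial list has the same lowest pair.

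Markers of the tissues of the gut were present throughout, with no gene of the epithelial, mesenchymal, smooth muscle, mesothelial, neural, endothelial, immune or erythroid lists at 0 in any library. Of the pancreas and liver list, Alb was at 0 in control 1 and in cKO 3, and Ptf1a in cKO 3. The summed level of 14 epithelial markers ran from 1243 to 1763 FPKM in the controls, lowest in controls 3 and 4, and from 1387 to 1835 FPKM in the libraries labelled cKO, lowest in cKO 2. For 10 mesenchymal markers the sums ran from 714 to 1148 FPKM and from 637 to 1069.6 FPKM, and for 10 smooth muscle markers from 1622 to 2267 FPKM and from 1339 to 1917 FPKM, with cKO 2 the highest of its group in both. Mesothelial markers, 8 in all, summed to 60.8 to 90.7 FPKM in the controls, highest in controls 3 and 4, and to 45.6 to 53.0 FPKM in the libraries labelled cKO. Erythroid markers, also 8, summed to 355 to 1036 FPKM and to 511 to 1093 FPKM, again lowest in controls 3 and 4 and highest in cKO 2. For 8 immune, 7 endothelial and 9 neural and glial markers the sums ran from 68.8 to 80.4, 49.8 to 87.5 and 108.7 to 147.8 FPKM in the controls, and from 49.5 to 64.6, 65.7 to 78.8 and 124.8 to 162.6 FPKM in the libraries labelled cKO. The part of these lists in the replication gene values was not tested.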

How the data were processed

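RNA from 8 whole small intestines, 4 per group, was analysed. Per the labels' protocols, RNA was extracted with TRIzol and made into libraries with a NEBNext Ultra kit. Tools in the submitters' processing notes are featureCounts, HISAT2, fastp, CASAVA and DESeq2 1.20.0, with the build GRCm39 and no roles. The authors deposited 1 table of FPKM per gene and library, with settings not given in the sources used here. Columns were matched by name, and 3 lines blank in the copy used are not analysed here.

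FPKM times gene length, divided by the smallest such value of the library, gave whole numbers within 0.01 for 100% of values above 0, taken here as reads. limma 3.58.1 in R 4.3.3, with an intensity trend, compared cKO with control on log2(FPKM + 1) for 14220 genes averaging at least 1 FPKM, 2-sided, with Benjamini-Hochberg adjustment over all of them and a threshold of 0.05. This scale understates changes of low genes. The limma p-values set the difference between groups against the spread among embryos within groups, and 4 libraries per group limit what can be called. A litter or batch that the labels do not give cannot be told apart from that spread. GC content came from the longest GENCODE M21 transcript (93.5% of genes), and the correction used mgcv 1.9.3. Motif windows came from RefSeq.

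The 38 genes, the other lists and the rule for named genes were chosen with earlier results of these data known. By that rule, the most abundant gene and the gene of smallest p of each role are given in every library. Of the other lists, the 4 genes of smallest p are named where none passed. Genes in the subsets by overlap, and Pcna-ps2, were named after their values were seen. Alternatives were the pseudocount, the filter, 2 other scalings, no trend, array quality weights, the number in the titles as a block, the GC and length correction, each library left out, and controls 3 and 4 left out. limma-voom on the reads was added after the data were seen.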

Additional observations from a re-analysis of the deposited data

Results flagged for a closer look

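Among the 38 genes, the 4 libraries of each group were searched for 1 that stood far from the other 3, by Dixon's ratio of gap to range. Of 76 groups, 7 were marked, where chance marks about 5% of independent groups. The groups here share the same 8 libraries and are not independent, so the 2 shares cannot be compared. The share over all genes was not counted. In 6 of the 7 the library was cKO 2, the highest of its group. Mcm3 was at 52.2 FPKM there, against 43.6 to 44.5 FPKM in the other 3, and Lig1 at 41.2 FPKM, against 30.1 to 31.6 FPKM. Rrm1 was at 30.2 FPKM, against 26.8 to 27.1 FPKM, and Pold1 at 14.7 FPKM, against 11.9 to 12.0 FPKM. Both measured subunits of the chromatin assembly factor were marked too, Chaf1a at 8.72 FPKM, against 6.73 to 7.005 FPKM, and Chaf1b at 10.5 FPKM, against 8.11 to 8.32 FPKM. The remaining mark was Rfc2 in control 3, at 10.5 FPKM, against 13.0 to 13.5 FPKM in the other controls.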

How the results depend on the processing

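For 38 genes, 0 passed limma's threshold in either direction under every setting run except array quality weights, with 3 higher and 2 lower. The median log2 fold change of the 38 was -0.040 without controls 3 and 4, between 0.07 and 0.28 with any 1 library left out (lowest without control 3), and between 0.04 and 0.24 under the other settings. That of the other replication genes was 0.07 without controls 3 and 4.

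Signs changed as follows, and the cause was not tested. Without controls 3 and 4, the log2 fold changes were -0.13 for Mcm2, -0.11 for Mcm3, -0.26 for Mcm5, -0.019 for Mcm7, -0.29 for Cdt1, -0.074 for Pole, -0.061 for Rfc2, -0.12 for Rfc5, -0.11 for Lig1, -0.081 for Rrm2, -0.017 for Tyms, -0.14 for Ccne1, -0.28 for Chaf1a, -0.15 for Chaf1b and -0.14 for Uhrf1. With array quality weights they were -0.11 for Mcm5, -0.11 for Cdt1, -0.0084 for Pole, -0.060 for Rfc2, -0.16 for Chaf1a and -0.040 for Chaf1b. Scaling by summed reads gave -0.033 for Rfc2 and -0.044 for Chaf1a, and the GC and length correction -0.028 for Rfc4 and 0.14 for E2f2. With 1 library left out the range was -0.13 to 0.024 for Pola2, -0.011 to 0.13 for Rfc4, -0.083 to 0.048 for E2f2, -0.091 to 0.21 for Mcm5, -0.10 to 0.23 for Cdt1, -0.045 to 0.081 for Rfc2, -0.12 to 0.12 for Chaf1a and -0.020 to 0.24 for Chaf1b. The pseudocount of 0.1, median-ratio scaling and limma-voom changed no sign and no call, and no filter and no trend, which cannot change a sign, changed no call. Median-ratio scaling nearly repeated the FPKM as deposited, with a median of 0.222375 for the 38 genes against 0.222392. limma-voom was run with the totals behind the FPKM. Neither is therefore a separate check on those totals.

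Libraries share only a number across groups: their deviations correlated at 0.07, 0.33, 0.15 and 0.21 for numbers 1 to 4, and not every library correlated best with its own number. With the number as a replicate block, 0 of the 38 genes passed, the smallest adjusted p was 0.126, and p was below 0.05 before adjustment for 10 higher and 2 lower, beside 12.6% and 11.8% of all genes. The block cannot move a fold change in this balanced design. Scaling by summed reads gave 3 higher and 2 lower before adjustment, beside 1184 and 2208 of all 14220 genes. The planned quasi-likelihood count test was not run, as the deposited values are not counts.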

Other observations

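Pcna-ps2, a processed copy of Pcna, was chosen after its values were seen. It had 75, 71, 74 and 47 reads in controls 1 to 4, 55 and 82 in cKO 1 and 2, and 793 and 720 in cKO 3 and 4. Pcna itself had 4304, 4480, 4187 and 4347 reads in controls 1 to 4, and 4521, 5813, 4156 and 4347 in cKO 1 to 4. Added together and scaled by the totals behind the FPKM, Pcna and its copy came to 261, 285, 249 and 249 reads per 1000000 in controls 1 to 4, and to 289.6, 327, 293 and 293 in cKO 1 to 4. In the sum on this scale the groups did not overlap, while in Pcna alone they did. The gap was narrow, between 284.7 in control 2 and 289.6 in cKO 1. Divided by the summed reads instead, control 2 lies above cKO 1, so that the groups overlap. Whether reads moved from the gene to the copy was not tested.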
